A study of Homo sapiens with 22 samples.

Results

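The 9 genes CFI, CFB, C3, C1R, C1S, CD46, CD55, CD59 and SERPING1 encode complement factors and complement regulators. They are 9 of the 25343 genes in the deposited tables and were chosen by symbol, with their expected counts and TPM (transcript abundance, from read counts scaled by gene length and library total) in the 7 groups already in view. Their levels and fold changes are therefore given as a description, and the calls from fits over all genes support nothing about the list. The study sequenced poly(A) RNA from human renal cancer lines, giving 22 libraries of cells grown in RPMI with fetal bovine serum. Of the lines, 786-O (2 libraries) is a clear cell renal carcinoma line, 786-M1A (2 libraries) is known as a metastatic derivative of it, and OS-LM1 (2 libraries) is known as a metastatic derivative of another renal cancer line, whose parent was not analysed here. All 16 other libraries come from 786-M1A cells under CRISPR interference (CRISPRi, repression by a guided inactive Cas9). The controls, SC (6 libraries), carried a non-targeting guide, and the other groups carried CRISPRi labelled iMAE-1.1 (4 libraries), iMAE-1.2 (4 libraries) or iMAE-126 (2 libraries). The labels used here do not give the sites those guides target or say whether replicates are separate cultures, so the spread between replicates may be technical. Nor do they say whether a line or group is 1 clone.

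Complement is a cascade of plasma proteins, made mostly by the liver but also by epithelial and tumour cells. C1r and C1s are the proteases of the C1 complex that opens the classical pathway. C3 is the component on which all routes converge, and factor B supplies the protease of the C3 convertase that amplifies the cascade. Factor I cleaves C3b and C4b when a cofactor such as CD46 is present, SERPING1 is the C1 inhibitor, CD55 speeds the decay of C3 convertases and CD59 blocks the membrane attack complex. In kidney, complement deposition and its restraint on cell surfaces are known from glomerular disease.

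Upstream sequences are shown for C1R, CFI and CD55, which differed most between the lines among the members matched, and for CFB, the low partner of C3. RefSeq's promoter table of build GRCh38.p14 held 6 of the 9 members (C1R, CFB, CFI, CD46, CD55 and CD59) with 11 start sites, and C3, C1S and SERPING1 were not matched. Each line gives the 250 bases before a start, 5′ to 3′ on the gene's strand, with matches to the motifs searched in capitals. C1R lies at chr12:7091894-7092143 on the minus strand, CFB at chr6:31945845-31946094 on the plus strand, CFI at chr4:109802000-109802249 on the minus strand and CD55 at chr1:207321428-207321677 on the plus strand.
C1R: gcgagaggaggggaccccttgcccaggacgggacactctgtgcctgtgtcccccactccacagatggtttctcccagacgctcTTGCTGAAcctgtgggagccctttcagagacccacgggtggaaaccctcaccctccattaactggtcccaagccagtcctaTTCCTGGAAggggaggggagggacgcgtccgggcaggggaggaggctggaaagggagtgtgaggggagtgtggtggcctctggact
CFB: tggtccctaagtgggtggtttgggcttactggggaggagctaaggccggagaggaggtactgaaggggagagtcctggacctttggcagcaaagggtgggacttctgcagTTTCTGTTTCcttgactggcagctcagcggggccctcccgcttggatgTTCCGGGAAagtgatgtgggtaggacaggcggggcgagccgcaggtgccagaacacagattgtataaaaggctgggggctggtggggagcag
CFI: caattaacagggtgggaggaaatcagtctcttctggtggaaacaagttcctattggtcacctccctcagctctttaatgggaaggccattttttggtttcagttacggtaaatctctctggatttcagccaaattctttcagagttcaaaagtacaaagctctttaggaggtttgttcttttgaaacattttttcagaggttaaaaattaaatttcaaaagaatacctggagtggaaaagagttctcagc
CD55: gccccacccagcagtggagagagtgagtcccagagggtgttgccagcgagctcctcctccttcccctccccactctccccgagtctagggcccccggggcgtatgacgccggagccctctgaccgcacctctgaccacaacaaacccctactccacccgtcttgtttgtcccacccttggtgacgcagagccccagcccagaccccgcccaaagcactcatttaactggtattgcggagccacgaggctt

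The motifs were searched on both strands as GAS (TTCNNNGAA), ISRE (GAAA, then NN, then GAAA), NF-kB (GGG, then NN, then TTTCC), C/EBP (TTGCNNAA), the HRE core (ACGTG) and AP-1 (TGANTCA). In the printed C1R window the capitals mark a C/EBP match 167 to 160 bases and a GAS match 86 to 78 bases before the start. In CFB they mark an ISRE match on the reverse strand 140 to 131 bases and a GAS match 92 to 84 bases before the start. The CFI and CD55 windows held no match, and their GC contents were 38% and 64% beside a median of 58% over all promoters. A second C1R start, at chr12:7092446-7092695, held a C/EBP match, and CD59 held GAS, C/EBP, HRE core and AP-1 matches across its starts. Of 35116 promoter windows of the same length, 6.57% held GAS, 3.02% ISRE, 1.73% NF-kB, 9.05% C/EBP, 18.5% the HRE core and 6.57% AP-1. A match describes the letters of a window and not a bound site.

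The classical pathway proteases, C1R and C1S, were above 4 TPM in OS-LM1 alone among the 7 groups. In bulk RNA, fewer cells expressing a gene and less RNA per cell cannot be told apart, here and in all that follows. C1R measured 55.2 and 51.3 TPM in the 2 OS-LM1 libraries, 1.61 and 1.47 in 786-O, and 1 and 1.11 in 786-M1A. In SC it ranged from 0.56 to 1.88 TPM (0.993 ± 0.495, SD, n = 6), in iMAE-1.1 from 0.36 to 0.58 (0.47 ± 0.0956, n = 4) and in iMAE-1.2 from 0.45 to 0.99 (0.68 ± 0.237, n = 4), and in iMAE-126 it was 2.42 and 2.17. The OS-LM1 libraries stood apart from all others, the iMAE-126 libraries came next and overlapped no other group, and the groups from 786-M1A down to iMAE-1.1 overlapped their neighbours. C1S, the protease that cleaves C4 and C2, measured 30.5 and 30.2 TPM in OS-LM1, 2.84 and 1.75 in 786-O, 0.73 and 1.17 in 786-M1A, and 2.95 and 3.64 in iMAE-126. It ranged from 1.15 to 2.65 TPM in SC, from 0.61 to 2.22 in iMAE-1.1 and from 1.27 to 1.94 in iMAE-1.2, so that below iMAE-126 every neighbour in the order overlapped. C1S and C1R are adjacent genes on chromosome 12, next to C1RL, a related protease gene. In OS-LM1 C1RL measured 13.6 and 15.4 TPM, not above the 15.7 and 17.7 TPM of iMAE-126, whereas C1R and C1S were higher in OS-LM1 than in any other library.

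**Figure D1:**
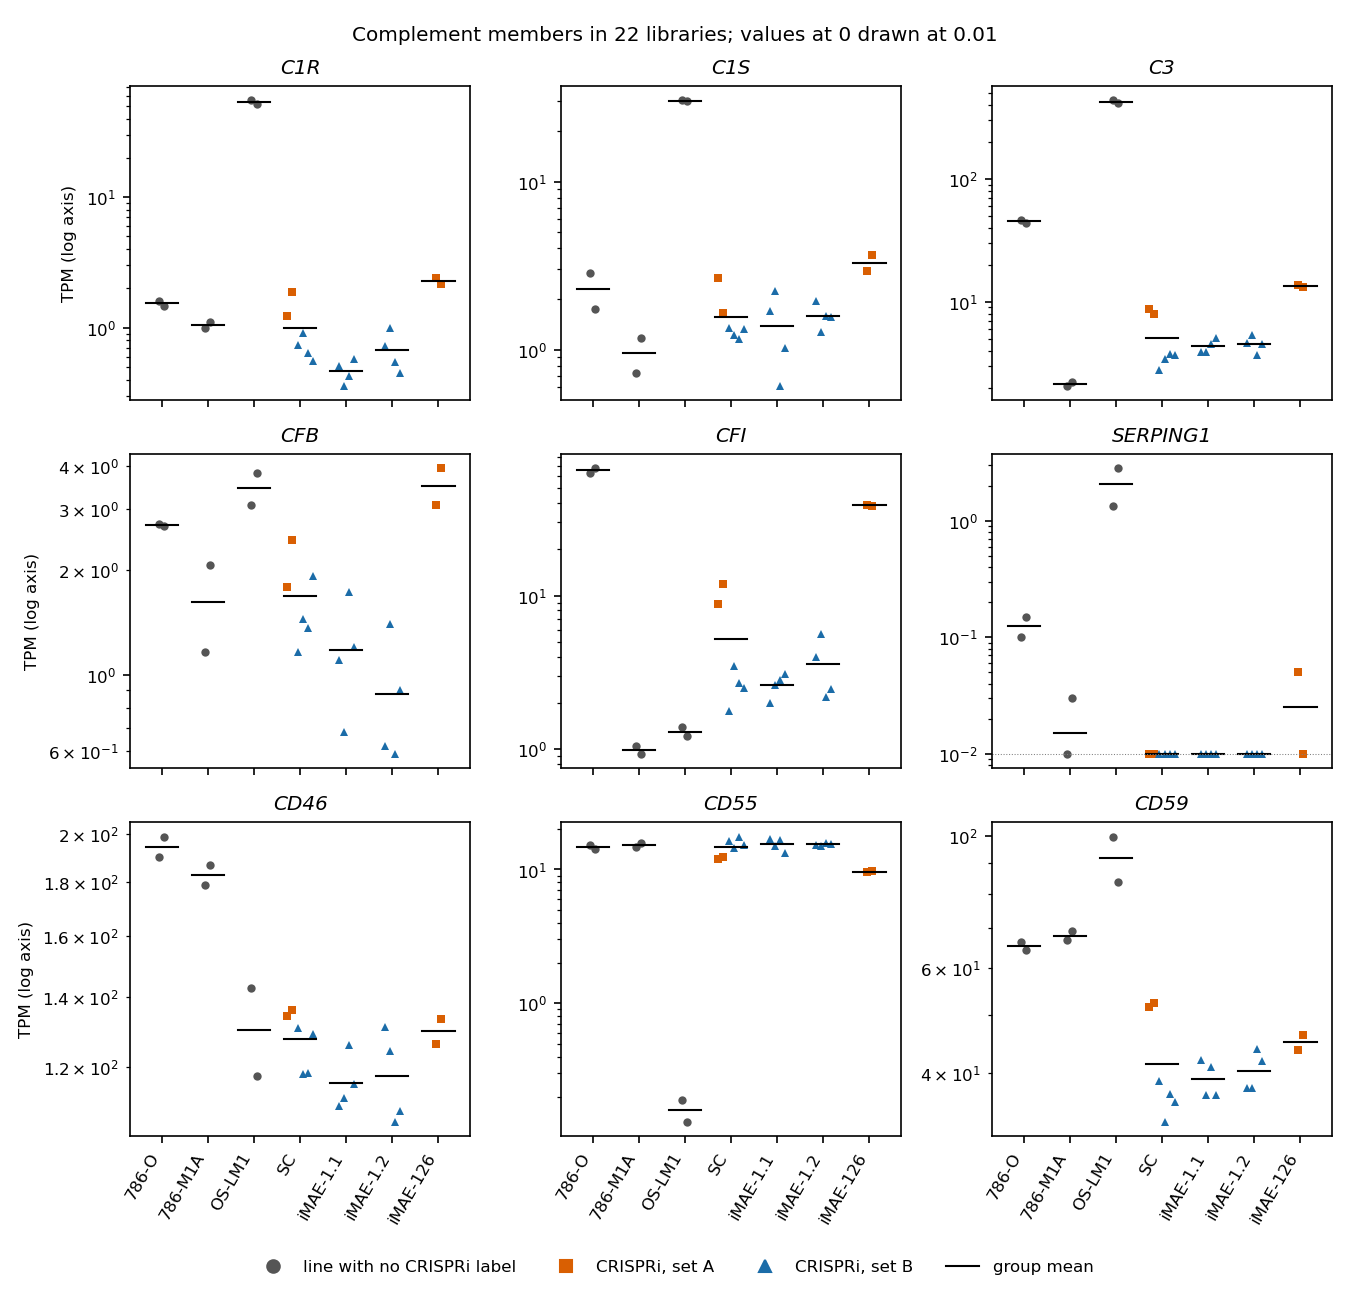
TPM of the 9 members in each of the 22 libraries on a log axis, by group, with the group mean as a line and values at 0 drawn at 0.01. Squares and triangles separate the CRISPRi libraries by mean gene length (set A longer, set B shorter). C3, C1R and C1S are highest and CD55 is lowest in OS-LM1, and CFI is highest in 786-O and iMAE-126.

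C3, the central component, spanned the widest range of levels among the members. It measured 438 and 413 TPM in OS-LM1, 46.3 and 44 in 786-O, and 2.08 and 2.21 in 786-M1A. SC ranged from 2.8 to 8.71 TPM with a median of 3.72, iMAE-1.1 from 3.89 to 5.1 and iMAE-1.2 from 3.71 to 5.33, and iMAE-126 measured 13.7 and 13.2. OS-LM1, 786-O and iMAE-126 each stood clear of the next group, the other 3 CRISPRi groups overlapped one another, and 786-M1A lay below every CRISPRi library. CFB, whose product pairs with C3b in the alternative pathway convertase, was low throughout. Its levels were 3.09 and 3.82 TPM in OS-LM1, 2.72 and 2.68 in 786-O, 1.16 and 2.07 in 786-M1A, and 3.09 and 3.94 in iMAE-126. In SC it ranged from 1.16 to 2.45 TPM (1.69 ± 0.468, SD, n = 6), in iMAE-1.1 from 0.68 to 1.73 and in iMAE-1.2 from 0.59 to 1.4. The top pair, iMAE-126 and OS-LM1, overlapped, as did every neighbour from SC downward. Length-scaled C3 thus averaged 426 TPM beside 3.46 for CFB in OS-LM1, but 2.15 beside 1.61 in 786-M1A.

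The fluid-phase regulators had different orders over the groups. CFI, encoding factor I, measured 63.3 and 67.3 TPM in 786-O but 1.05 and 0.93 in 786-M1A and 1.38 and 1.21 in OS-LM1. In iMAE-126 it was 39.2 and 38 TPM, whereas the SC libraries held 1.76 to 11.95 with a median of 3.08, iMAE-1.1 1.98 to 3.09 (2.62 ± 0.471, SD, n = 4) and iMAE-1.2 2.19 to 5.59 (3.55 ± 1.57, n = 4). The order ran from 786-O to iMAE-126 with no overlap, then through SC, iMAE-1.2 and iMAE-1.1, which overlapped, to OS-LM1 and 786-M1A, which did not. SERPING1, the inhibitor of C1r and C1s, was measurable mainly in OS-LM1, at 1.34 and 2.82 TPM, with 0.1 and 0.15 TPM in 786-O. Its reads numbered 74 over the 2 OS-LM1 libraries, 8 in 786-O, 1 in 786-M1A, 1 in iMAE-126 and 0 in all 14 libraries of SC, iMAE-1.1 and iMAE-1.2. A count of 0 allows up to 3 reads per group, which is 0.0305 CPM (counts scaled to the library total) in SC, with 0.0464 for iMAE-1.1 and 0.0462 for iMAE-1.2, covering counting error only. Scaled to the library totals times TMM factors (edgeR's normalisation factors), the count in OS-LM1 exceeded 786-O by 18 times (95% counting interval 8.69 to 43.3). It exceeded 786-M1A by 165 times (28.8 to 6620). These intervals pool the 2 libraries of a line and cover counting error only. With the spread between libraries, edgeR gave log2 fold changes of 4.131 (95% interval 2.663 to 5.598) against 786-O and 6.973 (5.014 to 8.933) against 786-M1A.

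The membrane regulators protect a cell's own surface, and 1 of them, CD46, was the most abundant member in 6 of the 7 groups. CD46, the surface cofactor for factor I, measured 190 and 199 TPM in 786-O, 179 and 187 in 786-M1A, and 143 and 118 in OS-LM1. It ranged from 118 to 136 TPM in SC, from 110 to 125.97 in iMAE-1.1 and from 106 to 131 in iMAE-1.2, with 126.09 and 133 in iMAE-126, and from OS-LM1 downward all neighbours overlapped. In every library CD46 stood between the 94.5th and 96.8th percentile of all genes by TPM, and its group means spanned 0.74 on the log2(TPM + 1) scale, the least of the 9 members. CD59, the inhibitor of the membrane attack complex, measured 99.8 and 83.7 TPM in OS-LM1, 66.8 and 69.2 in 786-M1A, and 66.4 and 64.3 in 786-O. The CRISPRi groups lay lower, from 33.1 to 52.4 TPM in SC, 36.7 to 42 in iMAE-1.1, and 37.7 to 43.8 in iMAE-1.2, with iMAE-126 at 43.7 and 46.4. OS-LM1, 786-M1A and 786-O each stood clear of the next group. The CRISPRi groups overlapped their neighbours in the order of means, and both iMAE-126 libraries lay above all of iMAE-1.1. CD59 overlaps the gene C11orf91 on RefSeq's assembly, and no source used here says whether the counting used strand.

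CD55, which encodes decay-accelerating factor, was nearly absent from 1 line. It measured 0.19 and 0.13 TPM in OS-LM1, from 10 reads over both libraries, beside 15.3 and 14.3 TPM in 786-O and 14.8 and 15.7 in 786-M1A. The CRISPRi libraries held 12 to 17.6 TPM in SC, 13.3 to 16.8 in iMAE-1.1 and 15.1 to 15.7 in iMAE-1.2, and iMAE-126 held 9.5 and 9.72. The 5 groups other than iMAE-126 and OS-LM1 overlapped their neighbours, iMAE-126 lay below them all, and OS-LM1 was lowest with no overlap. CD55 and CD46 lie within 10 genes of each other on chromosome 1, in a region that also holds C4BPA, C4BPB, CR1 and CR2. In OS-LM1 CD46 stayed above 117 TPM and C4BPB averaged 3.26 TPM, with C4BPA at 0.27, CR1 at 0.11 and CR2 at 0.0. Whether position bears on these levels was not tested.

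In the comparison of 786-M1A with its parent 786-O, which addresses what differs in the metastatic derivative, C3 and CFI were the called members with the largest differences. C3 was 20 times lower in 786-M1A (log2 fold change -4.32 ± 0.119, SE; 2 libraries against 2) and CFI was 62.1 times lower (-5.96 ± 0.14). C1S was also called, at -1.204 ± 0.281 (edgeR adjusted p = 0.0133), while C1R (-0.47, adjusted p = 0.0642), CFB (-0.67, 0.113) were not. SERPING1 was not called either (-2.84, 95% interval -5.70 to 0.01, edgeR adjusted p = 0.12). It rested on 8 reads in 786-O and 1 in 786-M1A. Scaled to library totals times TMM factors, that is 9.17 times more in 786-O (95% counting interval 1.23 to 407). The membrane regulators differed by 0.13 or less, with 95% intervals of -0.28 to 0.26 for CD46, -0.14 to 0.39 for CD55 and -0.13 to 0.39 for CD59. By edgeR at an adjusted p under 0.05, 3 of 9 members were called, 0 higher and 3 lower, beside 31.0% of all genes called, 14.7% higher and 16.3% lower. The median of the 9 was -0.67 beside -0.02 for all genes tested. C1S was not called without the first 786-M1A library (adjusted p = 0.102) or the first 786-O library (0.107).

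OS-LM1, which has another parent line, differed from both 786 lines in C1R, C1S, C3 and CD55. Its comparisons with them share the OS-LM1 libraries. The mean gene length of a library, weighted by counts, was 3617 and 3391 bases in OS-LM1 and 3909 to 3982 in the 786 lines. A difference between libraries and one between lines cannot be told apart here. Against 786-O, C1R was 38.7 times, C1S 14.5 times and C3 10.5 times higher, and CD55 was 78.1 times and CFI 44.7 times lower. Against 786-M1A, C1R was 53.6 times, C1S 33.4 times, C3 211 times and CFB 2.27 times higher, and CD55 was 85 times lower. CFI was 1.39 times higher than in 786-M1A and was not called there (log2 fold change 0.48, 95% interval 0.03 to 0.92, edgeR adjusted p = 0.0677). Against 786-O CFB was 1.42 times higher and was not called (adjusted p = 0.15). CD59 was higher by 0.65 and 0.52 and CD46 lower by 0.41 and 0.40 on the log2 scale, against 786-O and 786-M1A. In the first comparison 8 of 9 members were called, 5 higher and 3 lower, beside 63.6% of all genes (30.4% higher, 33.3% lower). In the second 8 of 9 were called, 6 higher and 2 lower, beside 68.7% of all genes (34.4% higher, 34.3% lower). The members' medians were 0.65 and 1.18 beside -0.02 and 0.04 for all genes. The calls of CD46 were lost without the first and without the second library of the 786 line compared (adjusted p from 0.0708 to 0.102), and that of CD59 against 786-M1A without its first library (0.0549).

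**Figure D2:**
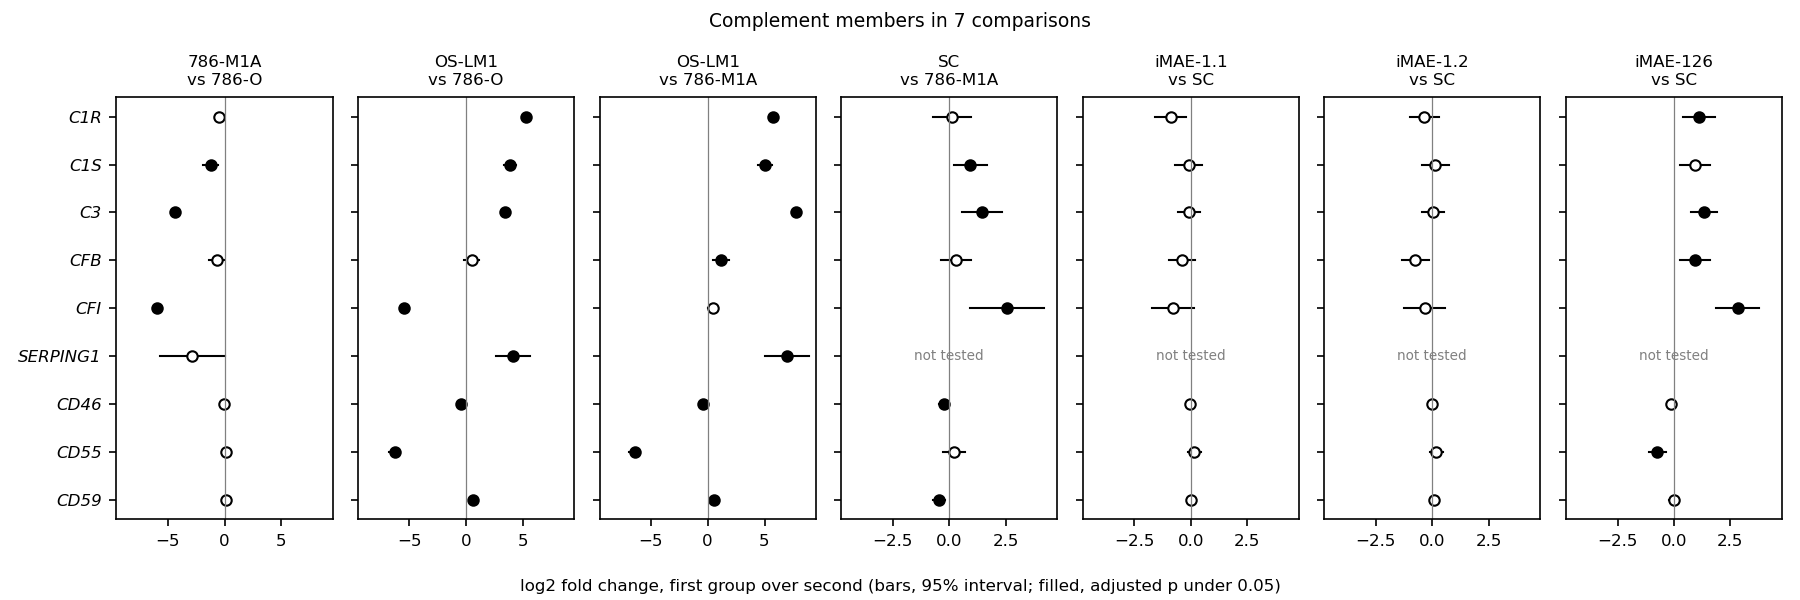
Log2 fold changes of the 9 members in 7 comparisons, first group over second, from edgeR with 95% intervals as bars. Filled points have an adjusted p under 0.05 over all genes, and the axis is narrower in the 4 comparisons with SC. C1R, C1S and C3 lie far to the right and CD55 far to the left in both OS-LM1 panels, and no point is filled for iMAE-1.1 or iMAE-1.2.

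The 16 CRISPRi libraries fell into 2 sets by their count-weighted mean gene length, a measure over all genes. The first 2 SC libraries (3646 and 3716 bases) and both iMAE-126 libraries (3528 and 3573) had the longer values and are called set A, and the other 12 libraries lay between 3264 and 3395 bases and are called set B. Within the SC controls alone, members differed between these sets, as counts did over all genes. A chi-square per gene, comparing the counts of 2 libraries, averaged 61.1 to 87 between SC libraries of different sets. Within a set it averaged 2.24 to 8.94. CFI averaged 10.4 TPM in the 2 set A libraries of SC and 2.6 in the 4 set B libraries, a ratio of 4. For C3 the means were 8.3 and 3.42 TPM, for C1R 1.55 and 0.713, for C1S 2.15 and 1.26, and for CD59 52 and 36.1, and CD55 ran the other way at 12.2 and 15.9. In these 6 genes the 2 SC sets did not overlap, nor in CD46, at 135 and 124 TPM, whereas CFB overlapped. The share of all genes without overlap was not computed, so the lack of overlap is not read as a trait of the members. On CPM with TMM factors, the CFI ratio of set A to set B was 3.34 and the C3 ratio 2.04. The CD46 ratio turned from 1.09 on TPM to 0.912 on CPM with TMM factors. The cause of the split was not tested, and the comparisons of the iMAE groups with SC are given without and with library set as a term.

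**Figure D3:**
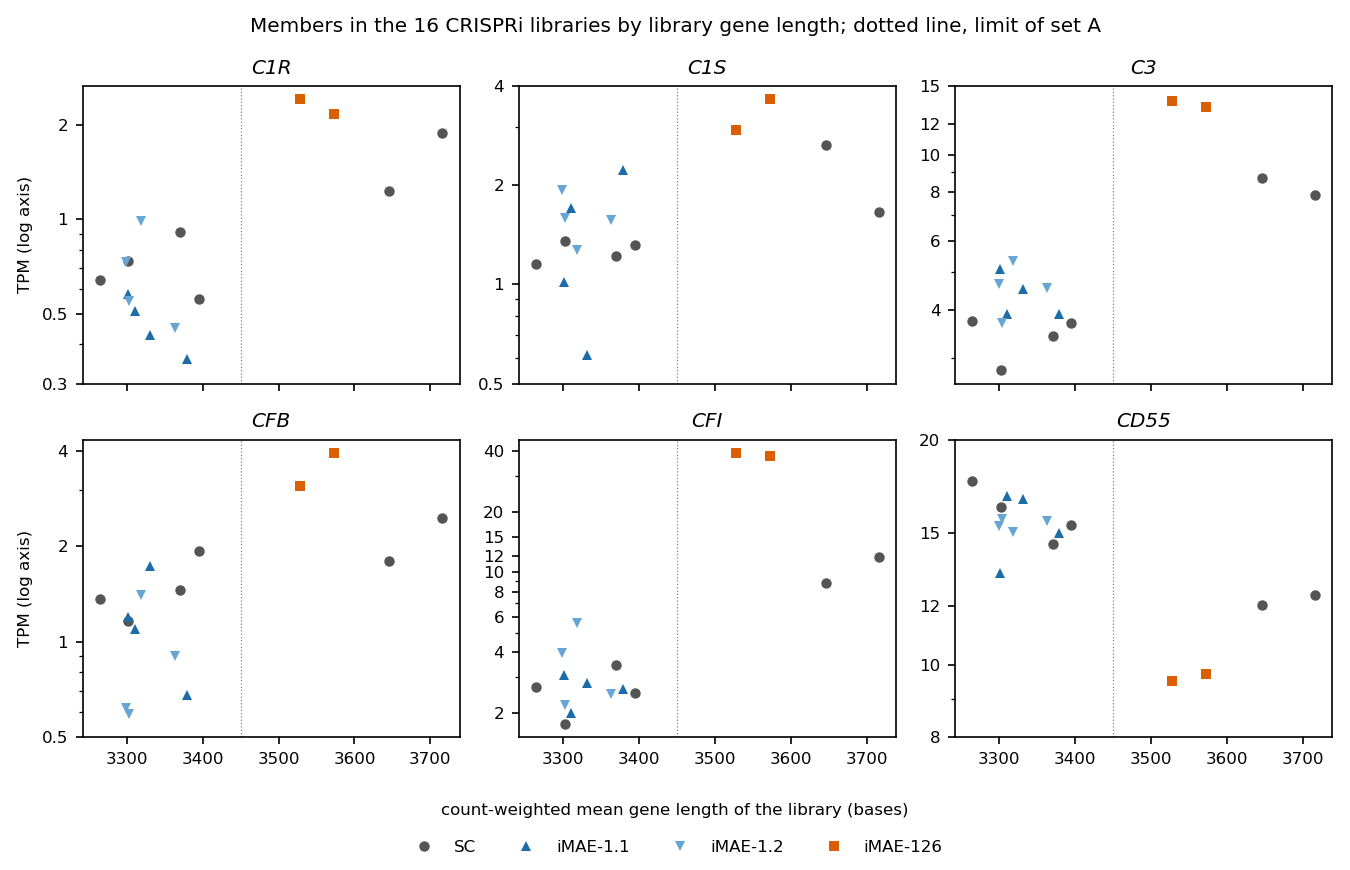
TPM (log axis) of 6 members in the 16 CRISPRi libraries against each library's count-weighted mean gene length in bases, with the groups as symbols. SC libraries lie on both sides of the dotted line between the sets, and both iMAE-126 libraries lie to its right. The SC libraries right of the line hold more CFI and C3 than those left of it, and iMAE-126 holds more than either.

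Under CRISPRi labelled iMAE-126, CFI and C3 were higher than in the SC controls in the fits without and with library set as a term. CFI was 7.12 times higher (log2 fold change 2.83 ± 0.445, SE; edgeR adjusted p = 0.00173) and 3.86 times higher with library set as a term (1.95 ± 0.328, adjusted p = 0.00165). C3 was 2.51 times higher (1.33 ± 0.267, adjusted p = 0.0048) and 1.67 times with the set term (0.74 ± 0.172, 0.00785). Both iMAE-126 libraries exceeded all 6 SC libraries in both genes, as they also did in C1R, C1S and CFB, and lay below them in CD55. The share of all genes without such overlap was not computed. C1R (1.12, adjusted p = 0.0339) and CFB (0.94, 0.0476) were called higher and CD55 (-0.74, 0.0129) lower without the set term, and with it their values were 0.63 (0.253), 0.79 (0.146) and -0.28 (0.0918). C1S at 0.95 was not called (adjusted p = 0.0516), nor were CD46 (-0.11, 95% interval -0.32 to 0.11) and CD59 (0.01, -0.20 to 0.22). With the set term C1S was 0.62 (-0.12 to 1.36), CD46 -0.01 (-0.23 to 0.21) and CD59 -0.16 (-0.34 to 0.02), so that CD59 turned in sign, and none of the 3 was called. SERPING1 fell under the filter on low counts in all comparisons with SC. Of the 8 members tested 5 were called, 4 higher and 1 lower, beside 15.5% of all genes (6.21% higher, 9.24% lower), and with the set term 2 were called, both higher, beside 16.7% of all genes (6.31% higher). The median of the 8 was 0.95 without and 0.62 with the set term, beside -0.004 and 0.003 for all genes. Without the first, and without the second, iMAE-126 library only CFI was called, and the call of C3 was lost (adjusted p = 0.0677 and 0.064).

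Under iMAE-1.1 and iMAE-1.2 no member was called against SC. The intervals of the membrane regulators were narrow. For iMAE-1.1 CD46 was -0.04 (95% interval -0.21 to 0.13), CD55 0.15 (-0.14 to 0.44) and CD59 0.03 (-0.14 to 0.20), and with library set as a term they were -0.09 (-0.24 to 0.07), -0.04 (-0.20 to 0.12) and 0.12 (-0.01 to 0.25). For iMAE-1.2 they were 0.00 (-0.17 to 0.17), 0.17 (-0.12 to 0.46) and 0.09 (-0.07 to 0.26), and with the set term -0.04 (-0.20 to 0.11), -0.02 (-0.18 to 0.15) and 0.19 (0.06 to 0.32). CFI turned in sign with the set term in both groups. It was -0.80 (-1.73 to 0.13) in iMAE-1.1 and -0.34 (-1.24 to 0.56) in iMAE-1.2 without the term, and 0.07 (-0.57 to 0.71) and 0.54 (-0.08 to 1.16) with it. A 2-fold decrease, -1 on this scale, lay inside both intervals without the term and outside both with it. With edgeR 0 of 8 were called in each, beside 0.452% of all genes for iMAE-1.1 and 0.721% for iMAE-1.2, and DESeq2 also called 0. At an unadjusted p under 0.05, 1 member passed in each, C1R in iMAE-1.1 (-0.90) and CFB in iMAE-1.2 (-0.75). With library set as a term 0 were called again, beside 1.79% and 2.73% of all genes, and C3 changed from -0.06 to 0.37 in iMAE-1.1 and from 0.02 to 0.45 in iMAE-1.2. For iMAE-1.1 and iMAE-1.2 in turn, C1R went from -0.90 and -0.35 to -0.53 and 0.02, C1S from -0.09 and 0.13 to 0.11 and 0.34, and CFB from -0.39 and -0.75 to -0.30 and -0.65. At an unadjusted p under 0.05 with the term, 1 member passed in iMAE-1.1 (C3) and 3 in iMAE-1.2 (C3, CFB and CD59).

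The SC controls differed from the 786-M1A line that they derive from. CFI was 5.95 times higher (2.57 ± 0.723, SE; edgeR adjusted p = 0.017), C3 2.75 times higher (1.46 ± 0.391, 0.0142) and C1S 1.91 times higher (0.93 ± 0.322, 0.0361) in SC. CD46 was lower by 0.25 (log2 fold change -0.25, adjusted p = 0.0403) and CD59 by 0.47 (-0.47, 0.0107). With the 2 set A libraries of SC alone CFI was higher by 3.46 and with the 4 set B libraries by 1.67, and C3 by 2.05 and 0.98. Of the 8 members tested 5 were called, 3 higher and 2 lower, beside 53.0% of all genes (27.8% higher, 25.3% lower), with a median of 0.27 beside 0.07. Without the first, and without the second, 786-M1A library 0 were called. The 786-M1A libraries had mean gene lengths of 3929 and 3982 bases, above every SC library, so a difference between library sets and the change to CRISPRi cells cannot be told apart.

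Other complement genes were taken from a list of 49, of which 21 reached a group mean of 1 TPM and 11 were at 0 in all 22 libraries. The latter included C1QA, C1QB and C1QC, the recognition subunits that C1r and C1s bind. C1RL was higher in iMAE-126 than in SC by 0.79 on the log2 scale (edgeR adjusted p = 0.0024) and by 0.85 with the set term (0.00178). C5, the precursor of the terminal pathway, measured 0.08 TPM on average in OS-LM1 beside 7.49 in 786-O and 9.69 in 786-M1A.

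Among the rest, C1QBP, a multifunctional C1q-binding protein, lay between 188 and 249 TPM in every group mean. The inhibitor SUSD4 averaged 0.715 TPM in OS-LM1 and 3.62 to 11 elsewhere, and VTN, which encodes vitronectin, averaged 4.61 in OS-LM1 and 0.4 or less elsewhere. C3AR1, the receptor of the C3a fragment, averaged 4.63 TPM in 786-O, 1.46 in 786-M1A and 0.565 in OS-LM1. C5AR1, the receptor of C5a, averaged 0.285 in 786-O, 0.595 in 786-M1A, 1.89 in OS-LM1 and 3.29 to 4.63 in the CRISPRi groups. CLU, CD109, CFD and MASP2, whose products are clusterin, a protease-binding surface protein, factor D and a lectin pathway protease, had highest group means of 16.1, 54.9, 3.99 and 3.5 TPM. C4A and C4B are near-identical, so their separate counts are uncertain.

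**Figure D4:**
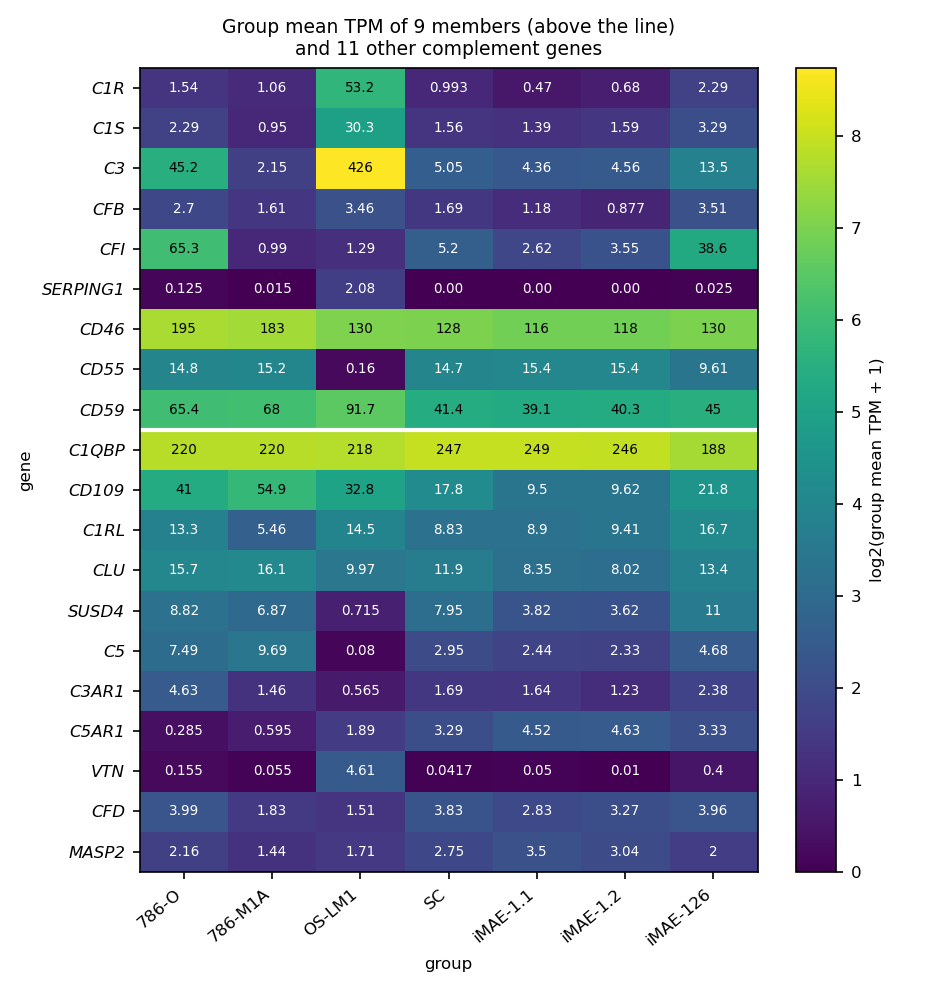
Group mean TPM of the 9 members and 11 other complement genes (rows) in the 7 groups (columns), coloured by log2(mean TPM + 1) with the mean printed in each cell. CD46 and C1QBP are high in every group, C3 is brightest in OS-LM1, and CFI is high in 786-O and iMAE-126.

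For all genes, the share called was 31.0% in 786-M1A against 786-O, and 63.6% and 68.7% in OS-LM1 against 786-O and 786-M1A. It was 53.0% in SC against 786-M1A, and 15.5% in iMAE-126 against SC (16.7% with the set term). In iMAE-1.1 and iMAE-1.2 it was 0.452% and 0.721% (1.79% and 2.73% with the term). The other complement genes tested were called at 37.0%, 63.0%, 63.0%, 56.5% and 17.4% (21.7% with the term) up to iMAE-126, in that order. In 786-M1A against 786-O, 10 of 27 tested were called, 2 higher (C5 and THBD) and 8 lower (C1RL, C4A, C4B, MBL2, CFD and C3AR1 among them), with a median of -0.74 beside -0.02 for all genes. In OS-LM1, 17 of 27 were called against 786-O (7 higher, 10 lower) and 17 of 27 against 786-M1A (9 higher, 8 lower), with medians of 0.15 and 0.07 beside -0.02 and 0.04. In SC against 786-M1A 13 of 23 were called (11 higher, 2 lower). In iMAE-126 4 of 23 were called (2 higher, C1RL among them, and 2 lower, C1QBP and THBD), and 5 with the set term. In iMAE-1.1 and iMAE-1.2 edgeR called 0 of 23, with 5 and 4 at an unadjusted p under 0.05, and with the set term it called 0 and 1 (THBD, lower).

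For the 8 members whose group means spanned at least 1 on the log2(TPM + 1) scale, the most similar genes were ranked among 7321 candidates by Pearson's r over the 22 libraries. The libraries share lines and depth, so r describes these libraries only. As the genes were chosen by r, their likeness to a member in group means follows from the choice. CFI was closest to FOLR1 (r = 0.954), ALDH1A1 (0.951) and C1QTNF6 (0.943). ALDH1A1 averaged 938 TPM in 786-O, 120 in 786-M1A, 139 in OS-LM1 and 636 in iMAE-126, the same order at the top as CFI. C3 was closest to GPRC5C (0.989), STAT4 (0.984) and ELOVL7 (0.981), each highest in OS-LM1 and next in 786-O. SLCO2B1 led for both C1R (0.988) and C1S (0.976), followed by FXYD3 and TRIB3 for C1R and by FCAMR and AFAP1L2 for C1S. These genes, and ADAMTS10, GABRE and SELENBP1 for SERPING1, all had their highest group mean in OS-LM1, where C1R, C1S and SERPING1 were also highest. ADAMTS10, GABRE and SELENBP1 reached the 5 TPM asked of candidates in OS-LM1 alone. CD55 was closest to BAG2 (0.994), EIF3E (0.988) and MTAP (0.985), and BAG2 averaged 0.805 TPM in OS-LM1 and MTAP 1.16, beside at least 26.7 and 21.2 elsewhere. CFB was closest to GGT1 (0.896), C10orf128 (0.894) and MGST2 (0.889), and CD59 to PLEKHA2 (0.983), PRSS23 and DPYSL2 (0.98 each).

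The gene length the authors' files assign was constant over all libraries for C3 (5101 bases), CFB (2627), CFI (2161) and C1R (2266). It ranged from 2723 to 2810 bases for C1S, from 2796 to 2914 for CD55, from 3302 to 3330 for CD46 and from 7567 to 7612 for CD59.

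Libraries held 9062605 to 52706490 expected counts, with the 786-O and 786-M1A libraries deepest, at 39698973 or more, and the CRISPRi libraries at no more than 36236118. Of the renal markers, PAX8 (87.1 to 262 TPM), PAX2 (2.11 to 28.5), KRT8 (494 to 839), KRT18 (234 to 460) and VIM (4592 to 8350) were present throughout. CA9 was not, and it reached a mean above 1 TPM in OS-LM1 alone. The 5 leukocyte markers summed to 2.01 to 2.63 TPM in 786-O, 1.29 to 1.41 in 786-M1A, 1.13 to 1.56 in OS-LM1, 0.82 to 1.47 in SC, 1.1 to 1.88 in iMAE-1.1, 1.05 to 2.23 in iMAE-1.2 and 1.64 to 2.17 in iMAE-126, with PTPRC at 0.7 TPM or less. The 3 endothelial markers summed to 0.3 to 1.61 TPM over all libraries, with CDH5 at 0.02 or less. The 3 hepatocyte markers summed to 90.2 and 91 TPM in OS-LM1 and to 19.7 to 53.4 elsewhere, nearly all from SERPINA1, while ALB stayed at 0.81 or less.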

How the data were processed

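RNA of renal cancer lines was sequenced in 22 stranded poly(A) libraries, per the labels' protocols. The authors deposited RSEM expected counts, which are estimated counts and need not be whole, and TPM for each gene and library. Alignment with Bowtie2, quantification with RSEM and build hg19 are named in the submitters' processing notes, and no source used here gives their versions. Deposited gene lengths were used as they stand. Samples were grouped by title. No column of another sample was used (0).

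Expected counts were rounded and fitted with edgeR 4.0.16 (quasi-likelihood, TMM factors, filterByExpr with a minimum count of 10, robust) in R 4.3.3, with Benjamini-Hochberg adjustment over all genes tested and a threshold of 0.05. The fits were 3: the 6 line libraries, the 16 CRISPRi libraries, and SC with 786-M1A. Fitted fold changes are on counts and levels on TPM, so they can differ in size and in sign. In SC against 786-M1A, C1R averaged 0.9933 beside 1.055 TPM, while its fitted log2 fold change was 0.135. CD46 averaged 127.7 beside 182.8 TPM there, with a fitted value of -0.251. From TPM to CPM with TMM factors, 19 ratios of the members' mean levels moved by at least the SD of the replicates and 39 did not. Standard errors are the fold change over the square root of F. The alternatives were DESeq2 1.42.0, its RLE factors in edgeR, no filter, limma 3.58.1 on log2(TPM + 1), the compared groups alone, a replicate block, each library left out, and library sets. Library set is a split of the CRISPRi libraries at the widest gap in mean gene length, between 3395 and 3528 bases. The fits were also run on simulated counts, which were drawn without library sets and so do not bear on how the fits handle that split.

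The members, lists and library sets were chosen with earlier results of these data known. Named genes were all members, the 12 other complement genes with the highest group mean of at least 1 TPM (1 of them is not reported here), and the 3 genes most correlated with each member among genes of at least 5 TPM in a group. Depth was 9062605 to 52706490 expected counts per library.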

Additional observations from a re-analysis of the deposited data

Results flagged for a closer look

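C1S in the first SC library measured 2.65 TPM, apart from the other 5 SC libraries at 1.15 to 1.66 TPM. The gap to the nearest library was 0.66 of the group's range, above Dixon's 95% limit for 6 libraries, and this test by chance singles out about 1 in 20 groups of the 24 examined. That library belongs to set A of longer mean gene length, and its part in the value was not tested.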

How the results depend on the processing

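Of the members' fold changes under the alternatives, 688 kept their direction and side of the threshold, 53 lost a call, 8 gained one, and 64 turned in sign, in 18 of 59 fold changes, with 0 of the 64 called on either side. For 786-M1A against 786-O the count of members called was 3, and 5 with the compared groups alone. For SC against 786-M1A it was 5, and 2 with limma. For iMAE-126 against SC it was 5, with 1 under the replicate block, 3 with the compared groups alone, 2 with library set as a term and 2 with SC of the same set as controls. Equal replicate numbers did not mark like libraries: deviations of same-numbered libraries correlated from -0.337 to 0.112 over 26 pairs, with 1 above 0.1. Between iMAE-1.1 and iMAE-1.2 the values were -0.275, -0.235, -0.207 and -0.337. In iMAE-1.2 the mean chi-square per gene was 3.95 for libraries 1 and 2 and 6.42 for 3 and 4, beside 11.8 to 28.8 for other pairs. In iMAE-1.1 it was 14.6 and 5.52, beside 12.2 to 23.4. Between the 2 libraries of a line it was 30.2 in OS-LM1, 5.51 in 786-O and 7.43 in 786-M1A. Structure among these libraries was not tested, and SDs and fits treat each group as plain replicates. The replicate block moved no other count of members by over 1.5 times. Leaving out each library in turn gave 2 to 4 for 786-M1A against 786-O, 7 to 8 and 6 to 8 for OS-LM1 against 786-O and 786-M1A, 0 to 5 for SC against 786-M1A, 1 to 6 for iMAE-126, and 0 throughout for both iMAE-1 groups. In iMAE-126 each of SC libraries 3, 4, 5 and 6 left out gave 3. Where this left a group with 1 library, that library is assumed to vary like the others. The causes were not tested. Depth limits SERPING1, at 0 to 8 reads per group outside OS-LM1, and CD55 in OS-LM1, at 10 reads.

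The turned log2 fold changes were these. With library set as a term, and with SC of the same set, iMAE-1.1 gave C1S 0.113 and 0.117, C3 0.374 and 0.375, CFI 0.073 and 0.063, and CD55 -0.039 and -0.036. In the same order iMAE-1.2 gave C1R 0.019 and 0.025, CFI 0.541 and 0.525, CD46 -0.045 and -0.044, and CD55 -0.016 and -0.014, and iMAE-126 gave CD59 -0.159 and -0.148. In SC against 786-M1A, C1R was -0.282 with SC libraries 3 to 6 alone and CD55 -0.229 with libraries 1 and 2 alone. Under the replicate block CD55 was -0.222 there, CD59 -0.014 in iMAE-1.1 and -0.044 in iMAE-126, and C3 -0.067 in iMAE-1.2. Limma gave C1R -0.077 and CD55 -0.062 in SC against 786-M1A, CD59 -0.061 in iMAE-1.1, C3 -0.031, CD46 -0.121 and CD59 -0.019 in iMAE-1.2, and CD46 0.024 in iMAE-126. CD46 was 0.009 with DESeq2, 0.009 with RLE factors and 0.039 with no filter in 786-M1A against 786-O, and -0.005, -0.004 and -0.0 in iMAE-1.2. Leaving out each library in turn gave ranges across 0 for CD46 (-0.037 to 0.016) in 786-M1A against 786-O, C1R (-0.114 to 0.249) and CFB (-0.05 to 0.783) in SC against 786-M1A, C1S (-0.397 to 0.152), C3 (-0.178 to 0.128), CD46 (-0.076 to 0.011) and CD59 (-0.007 to 0.065) in iMAE-1.1, C3 (-0.094 to 0.21), CFI (-0.715 to 0.015) and CD46 (-0.051 to 0.049) in iMAE-1.2, and CD59 (-0.017 to 0.051) in iMAE-126.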
